A study of Dicentrarchus labrax with 30 samples.

Results

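RNA of male and female European sea bass (Dicentrarchus labrax) was compared in 3 tissues, the pituitary, the brain as a whole, and the head kidney. All 30 of the 30 libraries entered the comparison, 15 from males and 15 from females by the sex label, with 5 males and 5 females in each tissue. The male libraries of a tissue came from 3 bold and 2 shy fish, and the female libraries from 2 bold and 3 shy fish. Bold fish left a shelter quickly and shy fish late or never in repeated risk-taking tests, and no strain, genotype or drug treatment is named in the labels. All fish shared the same rearing: eggs at about 13 °C, then 15 °C from hatching, then 21 °C from 121 days post fertilization, with sexing and sampling at 478 days. Of 10 fish sampled for 3 tissues each, the labels do not say which libraries come from the same fish, so each tissue was fitted on its own, with behavior as a covariate. No label gives the maturity of the gonads.

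Sea bass have no known sex chromosomes: sex is set by many loci together with the temperature of early life. In fish, gonadotropin-releasing hormone and kisspeptin neurons of the brain drive the pituitary, whose gonadotropins act on the ovary and testis, and sex steroids feed back on brain and pituitary through androgen, estrogen and progestin receptors. The head kidney is the main blood-forming organ of bony fish and also holds the interrenal cells, which make cortisol and other steroids.

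Library totals spanned 3808645 to 12550808 counts in the pituitary, 7916478 to 20067656 in the brain and 4667992 to 26837997 in the head kidney. Most tissue markers were highest in their own tissue. TSHB, the beta subunit of thyrotropin, averaged 2782 CPM (counts scaled to a common library size) in the pituitary and 0.103 and 0.0425 CPM in the brain and head kidney. The synaptic gene SNAP25 (DLAgn_00066930) averaged 1411 CPM in the brain and 48.1 CPM in the pituitary, and the hemoglobin gene HBAA1 averaged 183885 CPM in the head kidney. Some brain markers were higher in the pituitary than in the brain. These were SNAP25 identifiers DLAgn_00254710 (35.0 against 4.23 CPM) and DLAgn_00066940 (4.98 against 4.48 CPM), and GAD1 (0.243 against 0.0822 CPM). The germ cell marker DAZL had no count in any library, and GSDF, a gene of gonadal support cells, stayed at or under 0.154 CPM. Other gonad and germ cell markers had counts. AMH averaged 18.7 CPM in the brain and 5.28 CPM in the head kidney, and FOXL2 (DLAgn_00029260) 10.6 CPM in the pituitary. PIWIL1 reached 4.24 CPM, while DMC1 and ZAR1 stayed at or under 1.31 CPM. Of the liver markers, AMBP (DLAgn_00085790) averaged 2.30 CPM and APOB (DLAgn_00071210) 3.56 CPM in the head kidney. This APOB identifier reached 20.6 CPM, and APOB DLAgn_00217750 had no count. Of all libraries, 4 stood apart, and they were all of shy fish, 2 of them pituitary males, 1 a brain male and 1 a brain female. Ribosomal protein genes took 3.01% and 1.87% of counts in pituitary males 1 and 2, against 3.97% to 5.49% in the other pituitary libraries, and 0.0160% in brain female 3 and 2.81% in brain male 1, against 1.64% to 2.07% in the remaining 8 brains. The median Spearman correlation of these libraries with the rest of their tissue was 0.919 and 0.906 in the pituitary and 0.925 (male 1) and 0.731 (female 3) in the brain, against at least 0.955 and 0.980 for the others.

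No gene differed between males and females past an adjusted p of 0.05 in any tissue. By edgeR's quasi-likelihood test with Benjamini-Hochberg adjustment, 0 of 17102 genes passed in the pituitary, 0 of 18640 in the brain and 0 of 15741 in the head kidney, and the smallest adjusted p values were 0.363, 0.9998 and 1.00. The share called was therefore 0% in each tissue. Leaving out pituitary female 1 passed 1 gene, DLAgn_00037950 (log2 fold change 1.68), and leaving out head kidney female 5 passed 1, CK-2.1 (-3.47). Limma voom also called 0 genes in each tissue, and DESeq2 called 0 genes in the pituitary (0% of those tested), 1 in the brain (0.00545%) and 7 in the head kidney (0.0445%).

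At an unadjusted p under 0.05, edgeR's fit held 2316 genes in the pituitary (13.5% of those tested), of which 1001 were higher (5.85%) and 1315 lower (7.69%) in males. In the brain it held 89 genes (0.477%), 49 higher (0.263%) and 40 lower (0.215%) in males. In the head kidney it held 564 genes (3.58%), 247 higher (1.57%) and 317 lower (2.01%) in males. The pituitary count moved with the 2 libraries that stood apart: it was 916 without male 1, 877 without male 2 and 329 (173 higher, 156 lower) without both, and it was 3959 without female 1. Without female 2, 3 or 4 it was 1521, 1438 and 1392, and without the behavior term it was 950 (628 higher, 322 lower). Males 1 and 2 were the only shy males among the pituitary libraries. With behavior in the fit, the sex term without both therefore compared 3 bold males with 2 bold females. The 3 shy females then did not enter the fold change. This holds for all pituitary values given below without males 1 and 2. The brain count was 906 without female 3, 36 without male 1 and 45 without male 3. It was 633 (321 higher, 312 lower) without both brains that stood apart, male 1 and female 3. The head kidney count was 912 without female 3.

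**Figure D1:**
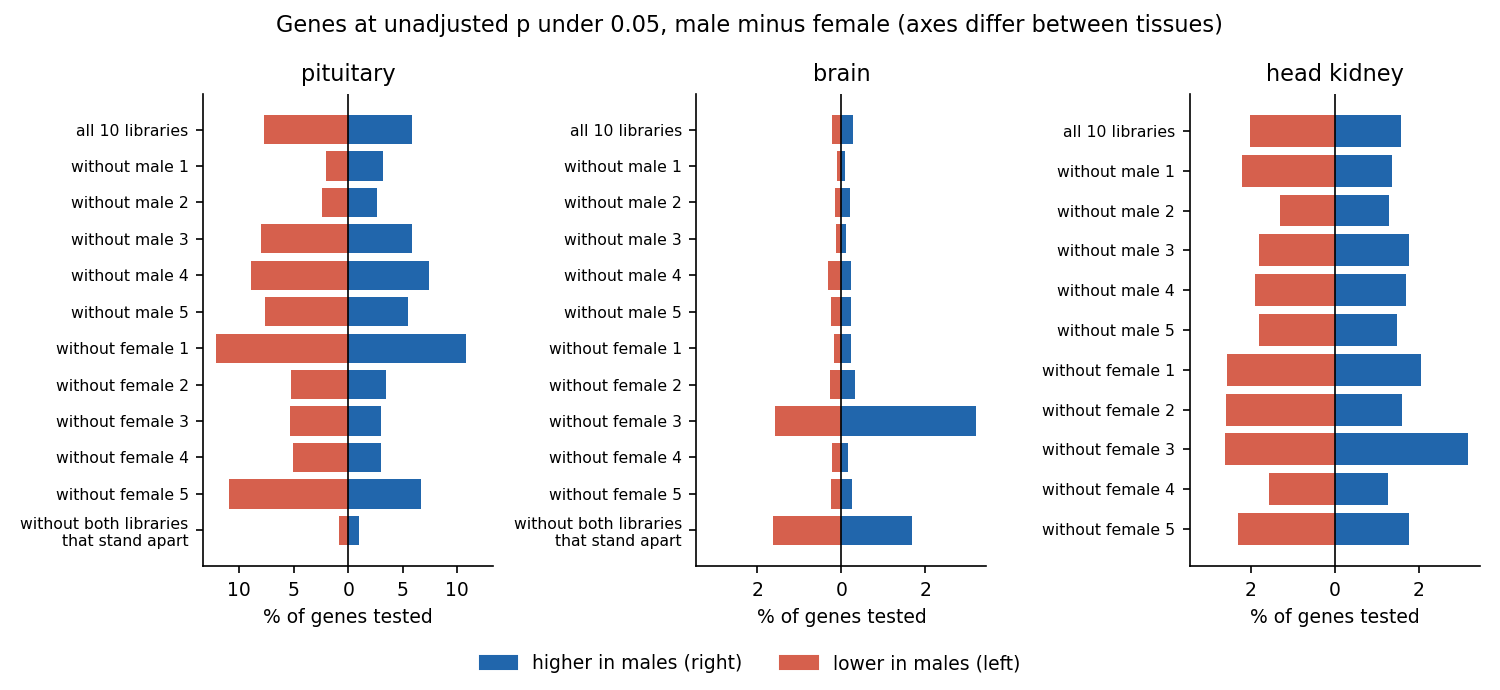
Share of the genes tested with an unadjusted p under 0.05 for male minus female, in each tissue with all 10 libraries and with libraries left out. Bars to the right are genes higher in males and bars to the left genes lower in males, in percent, and the axes differ between tissues. The pituitary share dropped when male 1 or male 2 was left out, and the brain share grew when female 3 was left out.

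The precision of the fold changes differed between tissues. The 95% confidence interval of the log2 fold change, male minus female, lay within 1 on either side of 0 for 66.3% of genes in the pituitary, 44.0% in the brain and 81.6% in the head kidney. For those genes a difference of 2-fold or more between the sexes lay outside the interval. The median half-width of the interval was 0.483, 0.816 and 0.381 on the log2 scale. The median log2 fold change over all genes was 0.01, -0.05 and -0.00. Since the samples are bulk tissue, fewer cells of a type and less RNA per cell cannot be told apart in any of these values. Within a tissue, the p values set each difference against the spread between the fish sampled.

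In the reproductive axis, the neuropeptide genes came first in the brain. Galanin (GAL), a hypothalamic neuropeptide whose fibers reach the pituitary in many fish, was the member of the reproductive neuropeptide list whose sexes did not overlap in the brain. GAL had 21.1, 40.8, 25.5, 23.8 and 15.5 CPM in male brains, against 4.74, 9.09, 0.130, 10.8 and 12.6 CPM in female brains. All 5 males lay above all 5 females, which 0.343% of the genes tested in the brain did, and the lowest value belonged to brain female 3, which stood apart. Its log2 fold change was 1.76 (SE 0.74, unadjusted p 0.0397 by edgeR). Without both libraries that stood apart it was 1.57 (SE 0.31), with an unadjusted p of 0.00095 and an adjusted p of 0.997 by edgeR with Benjamini-Hochberg adjustment. It ranged from 1.45 to 2.19 over all fits that left out libraries.

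The other members of this list were spread to both sides. Of 23 members tested in the brain, 11 were higher and 12 lower in males, with a median log2 fold change of -0.01, and GAL was the 1 member at an unadjusted p under 0.05. Without the 2 brains that stood apart, 10 were higher and 14 lower, with a median of -0.11. GNRH2, which codes for a gonadotropin-releasing hormone of midbrain neurons, had 9.96, 5.91, 12.0, 12.8 and 8.53 CPM in male brains and 9.55, 6.80, 0.130, 7.29 and 5.05 CPM in female brains. The sexes overlapped, again with brain female 3 lowest, and the log2 fold change was 0.67 (95% interval -0.83 to 2.17), and 0.35 without the 2 brains that stood apart. The gonadotropin-releasing hormone receptor GNRH-R averaged 5.05 CPM in male brains and 4.61 CPM in female brains (log2 fold change 0.07, 95% interval -0.75 to 0.88, and -0.05 without those libraries). For the kisspeptin receptor GPR54 the log2 fold change was -0.16 (-1.32 to 0.99). In the pituitary, the receptor GNRH-R2 had a log2 fold change of -0.85 (95% interval -2.05 to 0.35), at 0.217 to 2.13 CPM in males and 1.53 to 2.47 CPM in females, and of 0.15 (SE 0.49) without males 1 and 2. The tachykinin receptor TACR3A averaged 4.43 CPM in male pituitaries and 2.44 CPM in female pituitaries (log2 fold change 0.80, SE 0.32, unadjusted p 0.0294 by edgeR), with 0.62 (SE 0.45) without males 1 and 2.

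The androgen and progestin receptor genes tested showed no sex difference past the test in any tissue. The estrogen receptor symbols fixed in advance (ESR1, ESR2, ESR2A, ESR2B) gave no tested gene, so nothing is shown for them. Androgens act through ARA and ARB, the androgen receptor genes of fish. ARB had 7.83, 6.62, 6.82, 8.47 and 4.42 CPM in male pituitaries, against 8.69, 3.34, 2.41, 3.19 and 4.79 CPM in female pituitaries. The sexes overlapped, with female 1 the highest library and male 5 among the females, and the log2 fold change was 0.58 (95% interval -0.16 to 1.32) but -0.06 without pituitary males 1 and 2. For ARA it was -0.16 (-0.71 to 0.39) in the pituitary, and 0.25 without those 2 males, and 0.21 (-0.46 to 0.87) in the brain. The nuclear progestin receptor PGR ranged from 4.98 to 23.8 CPM in male pituitaries and from 2.63 to 31.8 CPM in female pituitaries, with a log2 fold change of 0.21 (-1.15 to 1.58), and -0.55 without those males. Of the list of sex steroid receptors and cofactors, 8 of 21 members tested were higher in male pituitaries and 13 lower, with a median log2 fold change of -0.04, against 12 higher and 10 lower without males 1 and 2. With all libraries, 1 member was higher in males at an unadjusted p under 0.05 by edgeR (background 5.85%) and 1 lower (background 7.69%). The higher one was FKBP4, a chaperone partner of steroid receptors, at 0.40 (SE 0.11), and at 0.21 (SE 0.12) without males 1 and 2.

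Among steroid synthesis and metabolism genes, 1 had no overlap between the sexes in the pituitary. HSD11B2 (DLAgn_00250230) codes for the enzyme that inactivates cortisol and, in fish, also takes part in making 11-ketotestosterone, their main androgen. It had 35.8, 35.5, 38.6, 39.5 and 41.1 CPM in male pituitaries and 33.6, 21.9, 20.2, 21.9 and 31.8 CPM in female pituitaries. All males lay above all females, as 0.351% of genes tested in the pituitary did, and the male values were close together. Its log2 fold change was 0.51 (SE 0.13, unadjusted p 0.00169 by edgeR), and 0.28 (SE 0.14, unadjusted p 0.0649 by edgeR) without males 1 and 2. A second identifier with this symbol (DLAgn_00234370) stood at 0.01 (SE 0.61), and at 0.55 (SE 0.65) without those males.

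Members of the 17-beta-hydroxysteroid dehydrogenase family, several of which convert sex steroids between stronger and weaker forms, did not move together. HSD17B8 had 4.35, 4.25, 2.32, 3.44 and 2.66 CPM in male head kidneys, against 4.19, 3.98, 6.41, 5.78 and 6.50 CPM in female head kidneys. The sexes overlapped through females 1 and 2, and the log2 fold change was -0.65 (SE 0.23, unadjusted p 0.0139 by edgeR). In the pituitary it was -0.68 (SE 0.28), but -0.10 without males 1 and 2, and in the brain 0.28 (SE 0.55), but -0.27 without the 2 brains that stood apart. HSD17B4 in the pituitary had a log2 fold change of 0.40 (SE 0.15), and 0.11 without males 1 and 2, and HSD17B10 had -1.29 (SE 0.55), and 0.01 without them. The pituitary values of these 2 genes were thus nearer 0 without those males, in a comparison of bold fish only. Over the whole list, 9 of 18 members tested in the pituitary, 12 of 19 in the brain and 11 of 18 in the head kidney were higher in males, with medians of -0.05, 0.13 and 0.15. Without the libraries that stood apart, 13 members were higher and 6 lower in the pituitary, and 9 higher and 11 lower in the brain.

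In the head kidney, the interrenal steroid genes were higher on average in males, with overlapping groups. STAR, which moves cholesterol into the mitochondrion, had 211, 281, 116, 172 and 448 CPM in male head kidneys and 118, 271, 148, 161 and 159 CPM in female head kidneys. Male 5 was the highest library and male 3 the lowest, and the log2 fold change was 0.59 (95% interval -0.23 to 1.40). CYP11A, the side-chain cleavage enzyme, stood at 0.71 (-0.29 to 1.71), CYP11B at 0.57 (-0.20 to 1.34) and CYP17A2 at 0.85 (-0.20 to 1.90). CYP21A2, the 21-hydroxylase of cortisol synthesis, averaged 129 CPM in males and 84.5 CPM in females (log2 fold change 0.72, SE 0.31, unadjusted p 0.0407 by edgeR). Of the 9 interrenal and chromaffin genes tested, 6 were higher and 3 lower in males, with a median of 0.59. Their summed level ranged from 253 to 915 CPM in males and from 268 to 530 CPM in females, so the sexes overlapped for the list as a whole.

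The genes named here that direct or mark the gonad overlapped between the sexes. FOXL2, a transcription factor of ovary and pituitary, had 6.53, 6.08, 12.9, 8.84 and 11.7 CPM in male pituitaries and 12.9, 15.8, 6.19, 10.5 and 14.4 CPM in female pituitaries. Its log2 fold change was -0.52 (95% interval -1.11 to 0.06) there and -0.02 (-1.31 to 1.28) in the brain, and -0.28 and -0.17 without the libraries that stood apart. AMH, which codes for anti-Mullerian hormone, ranged from 15.0 to 26.0 CPM in male brains and from 0.783 to 24.9 CPM in female brains, with brain female 3 the low one (log2 fold change 0.14, -1.31 to 1.59, and -0.013 without the 2 brains that stood apart). In the head kidney it stood at 0.40 (-0.10 to 0.91). SOX9, a factor of testis and cartilage that glia also express, had 0.46 (-0.08 to 1.00) in the pituitary and -0.28 (-1.06 to 0.51) in the brain, where it was 0.10 without those 2 brains. The germ cell gene PIWIL1 stayed between 0.145 and 4.24 CPM in the pituitary. Of the gonad sex determination list, 6 of 17 members were higher in male pituitaries, 8 of 20 in male brains and 6 of 11 in male head kidneys, with medians of -0.11, -0.04 and 0.18. Without the libraries that stood apart, 7 members were higher and 11 lower in the pituitary, and 10 higher and 11 lower in the brain. In the pituitary 3 members, all lower in males, had an unadjusted p under 0.05 (background 7.69%), and none did without males 1 and 2.

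**Figure D2:**
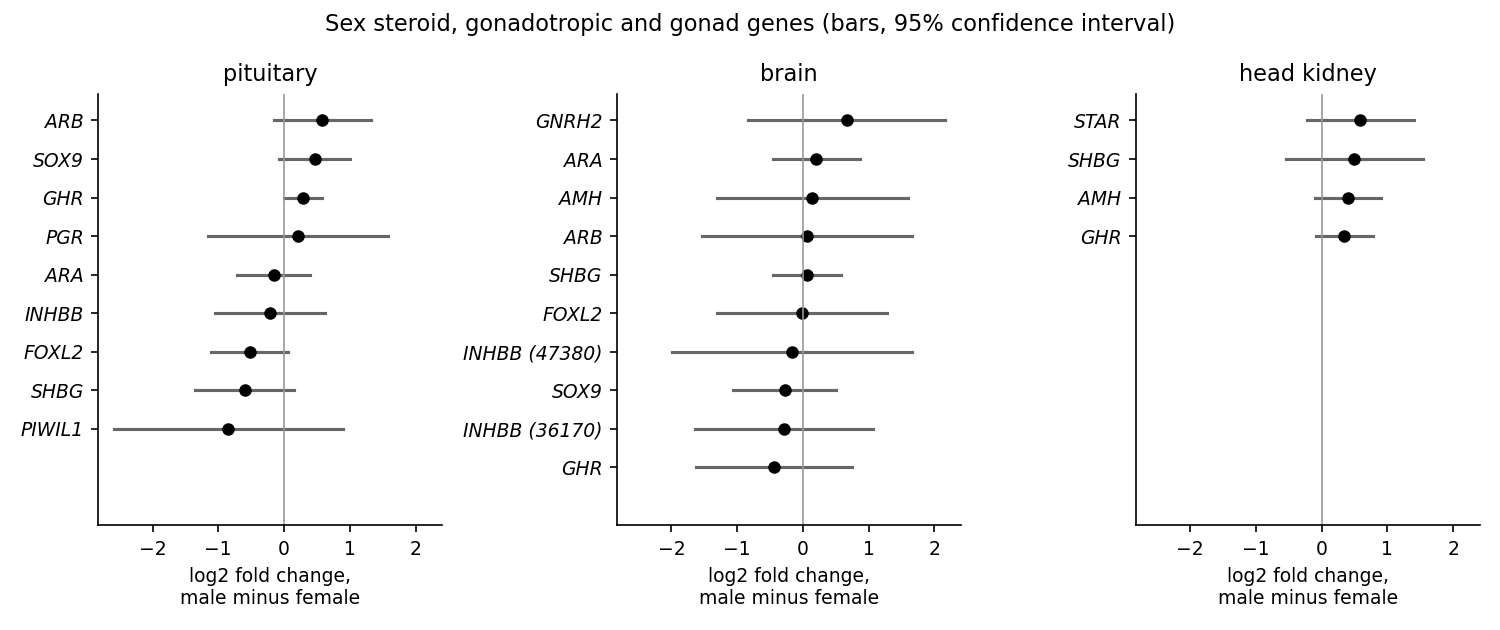
Log2 fold change, male minus female, of reproductive genes tested in each tissue, with points for the estimate and bars for its 95% confidence interval. Positive values mean higher in males. The interval of every gene shown crosses 0.

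Estrogen-responsive genes gave 1 member without overlap, in the pituitary. CTSD, a lysosomal protease that estrogen induces in human breast cells, had 73.1, 90.0, 110, 118 and 102 CPM in male pituitaries, against 131, 159, 126, 119 and 127 CPM in female pituitaries. Every male lay below every female, as 0.433% of genes tested in the pituitary did, although male 4 and female 4 were close. On the log2 scale the fold change was -0.47 (SE 0.14, unadjusted p 0.00519 by edgeR), and -0.23 (SE 0.14) without males 1 and 2. It differed from the average of brain and head kidney by -0.69 (SE 0.23), with an adjusted p of 0.668 by edgeR with Benjamini-Hochberg adjustment. In all, 5 of 12 members of that list were higher in male pituitaries, 9 of 14 in male brains and 3 of 7 in male head kidneys, against 4 of 12 and 7 of 14 in pituitary and brain without the libraries that stood apart.

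Among single genes with the smallest p values in the pituitary, MEF2C led those higher in males. MEF2C, a MADS-box transcription factor of muscle and neurons, had 31.6, 32.7, 19.6, 23.0 and 21.6 CPM in male pituitaries and 14.8, 17.1, 12.0, 12.6 and 15.1 CPM in female pituitaries. The groups did not overlap, and the highest values were those of males 1 and 2. On the log2 scale the fold change was 0.86 (SE 0.18), with an adjusted p of 0.363 by edgeR with Benjamini-Hochberg adjustment, and 0.52 (SE 0.21) without males 1 and 2. In the brain it was -0.63 (SE 0.37), and -0.24 (SE 0.13) without the 2 brains that stood apart, and in the head kidney -0.10 (SE 0.17). B4GALT2, a galactosyltransferase of glycan synthesis, had a log2 fold change of 0.72 (SE 0.17), and DNAJB8, a co-chaperone, 0.61 (SE 0.15), both without overlap, and 0.39 and 0.42 without males 1 and 2.

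On the lower side stood 2 identifiers of UBR2, a ubiquitin ligase that male meiosis requires in mice. UBR2 (DLAgn_00265680) had 20.9, 10.7, 30.8, 29.5 and 26.0 CPM in male pituitaries, against 37.0, 34.1, 40.1, 43.4 and 54.4 CPM in female pituitaries. UBR2 (DLAgn_00246860) had 7.57, 7.60, 10.3, 10.8 and 9.36 CPM in male pituitaries, against 15.2, 13.1, 13.6, 13.6 and 15.5 CPM in female pituitaries. For both, all males lay below all females. The log2 fold changes were -0.99 (SE 0.22) and -0.71 (SE 0.16), and -0.66 (SE 0.19) and -0.60 (SE 0.20) without males 1 and 2. How the counting shared reads between these copies is not given in the sources used here, so their levels are uncertain. SLC12A5, the chloride-extruding cotransporter of neurons, stood at -1.32 (SE 0.30) and IMPA1, an inositol monophosphatase, at -1.18 (SE 0.29), with 4 of 5 males below all females in each. Without males 1 and 2 these were -0.62 and -0.53.

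In all, 134 genes did not overlap between the sexes in the pituitary (0.784%), 97 in the brain (0.520%) and 96 in the head kidney (0.610%). In the brain, NIPSNAP1, whose protein lies in mitochondria, had 0.553, 0.862, 0.737, 1.25 and 0.692 CPM in males and 3.56, 1.76, 4.04, 3.24 and 2.81 CPM in females. Males lay below females throughout, at levels near 1 CPM where few reads stand behind each value. The log2 fold change was -1.93 (SE 0.35), and -1.71 (SE 0.34) without the 2 libraries that stood apart. This was the gene DESeq2 called in the brain, with a Benjamini-Hochberg adjusted p of 0.0214, against 0.9998 by edgeR. Higher in males without overlap were CH25H, a hydroxylase that makes 25-hydroxycholesterol, at 1.10 (SE 0.30), and VSIG10 at 1.20 (SE 0.33), which were 0.82 and 0.99 without those libraries. CH25H ranged from 5.61 to 9.59 CPM in males and from 1.96 to 4.41 CPM in females.

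**Figure D3:**
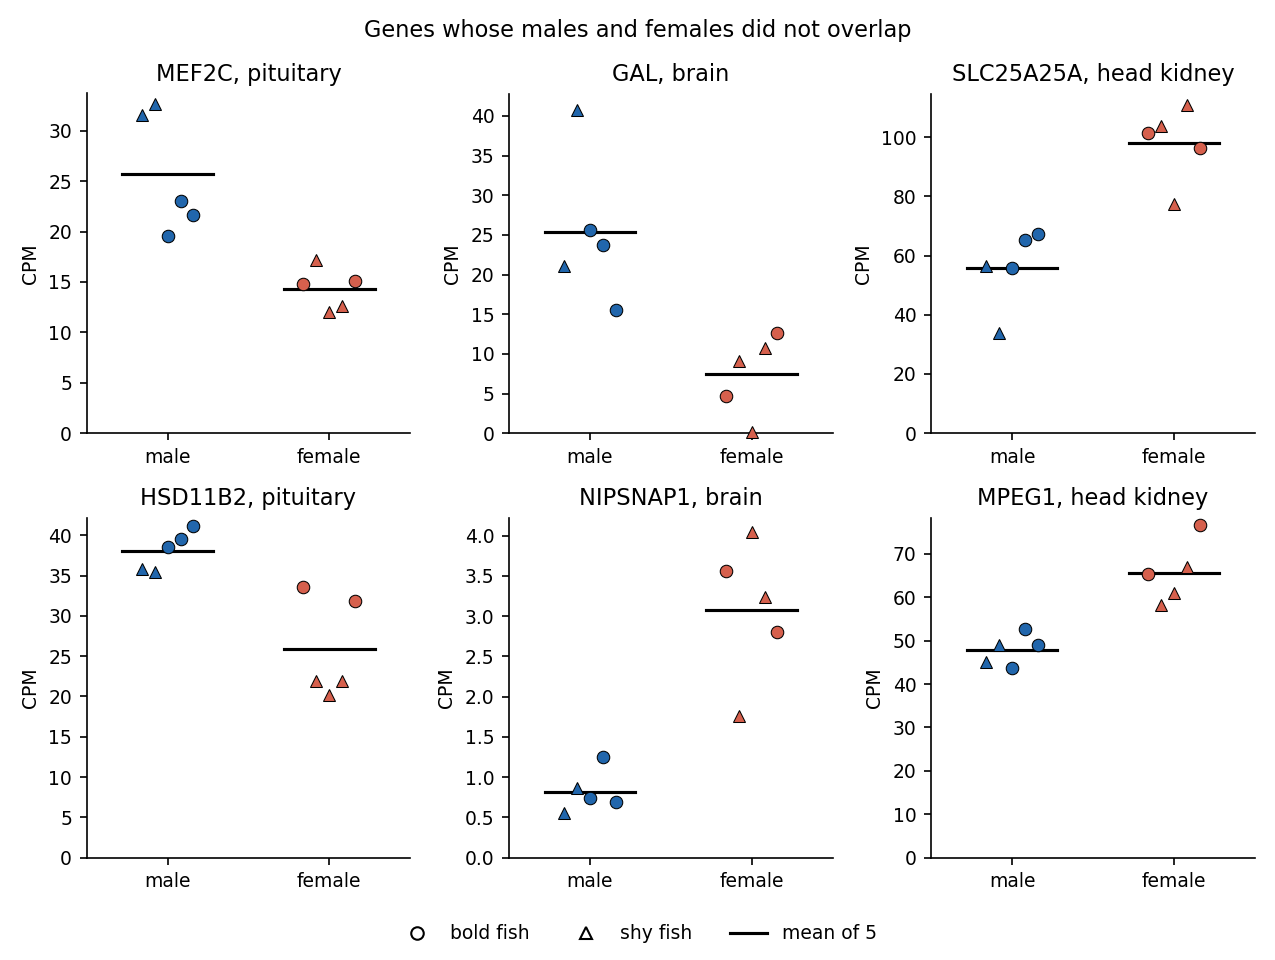
Levels in CPM of genes whose male and female libraries did not overlap, by library, for MEF2C and HSD11B2 in the pituitary, GAL and NIPSNAP1 in the brain and SLC25A25A and MPEG1 in the head kidney. Circles are bold fish, triangles shy fish and lines the mean of 5 libraries. Each panel has its own axis from 0, and all males lie on 1 side of all females.

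The single smallest unadjusted p of the 3 tissues by edgeR was in the head kidney (0.000213), against 0.000334 in the brain and 0.000385 in the pituitary. The smallest Benjamini-Hochberg adjusted p was in the pituitary, at 0.363. SLC25A25A, a calcium-regulated carrier of ATP-Mg and phosphate across the inner mitochondrial membrane, had 56.4, 33.9, 55.8, 65.4 and 67.2 CPM in male head kidneys and 101, 104, 77.4, 111 and 96.3 CPM in female head kidneys. The sexes did not overlap, and male 2 was the lowest library. The log2 fold change was -0.88 (SE 0.17), with a Benjamini-Hochberg adjusted p of 1.00 by edgeR and 0.00815 by DESeq2. It ranged from -0.97 to -0.70 over fits that left out a library. In the pituitary and brain, where the gene was at lower levels, the log2 fold changes were 0.08 (SE 0.41) and -0.35 (SE 0.32), and -0.54 (SE 0.38) and -0.08 (SE 0.22) without the libraries that stood apart.

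ARSG, a lysosomal sulfatase, was the head kidney gene higher in males with the smallest p. It had 4.58, 4.03, 2.63, 3.29 and 3.42 CPM in males and 1.85, 1.07, 1.24, 1.40 and 1.70 CPM in females, without overlap. Its log2 fold change was 1.29 (SE 0.25), with a Benjamini-Hochberg adjusted p of 1.00 by edgeR and 0.0221 by DESeq2. Also higher in males without overlap were TNIKA, a kinase of Wnt signalling, at 0.48 (SE 0.11), and the zinc finger gene ZNF462 at 0.57 (SE 0.14). The other genes that DESeq2 called were lower in males: MPEG1, HERC4 (-1.46, SE 0.34), and DLAgn_00022770 (-1.69, SE 0.38), DLAgn_00224090 (-1.60, SE 0.36) and DLAgn_00116250 (-1.21, SE 0.26), which carry no symbol.

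Several immune lists of the head kidney had most of their members lower in males, without any member past the adjusted threshold by edgeR. MPEG1, which codes for the pore-forming perforin-2 of macrophages, had 45.1, 49.0, 43.6, 52.7 and 49.0 CPM in male head kidneys and 65.4, 58.3, 60.9, 67.0 and 76.6 CPM in female head kidneys. Males lay below females throughout, with a log2 fold change of -0.48 (SE 0.10) and a Benjamini-Hochberg adjusted p of 1.00 by edgeR and 0.0172 by DESeq2. In the pituitary the same gene averaged 15.8 CPM in males and 7.64 CPM in females (log2 fold change 0.85, SE 0.37). Set against the average of brain and head kidney, the pituitary value differed by 1.22 (SE 0.38), with an adjusted p of 0.668 by edgeR with Benjamini-Hochberg adjustment. NKL, which codes for the antimicrobial peptide NK-lysin of cytotoxic lymphocytes, had 1.83, 0.637, 1.65, 2.07 and 1.95 CPM in male head kidneys and 3.32, 3.98, 2.51, 3.05 and 4.97 CPM in female head kidneys. Again the sexes did not overlap (log2 fold change -1.28, SE 0.29).

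The T and NK cell list had 4 members higher and 16 lower in male head kidneys, with a median log2 fold change of -0.24 and 4 members at an unadjusted p under 0.05, all lower in males, against a background of 2.01%. Besides NKL these were LCK and ZAP70, kinases of T cell receptor signalling, at -0.53 (SE 0.20) and -0.48 (SE 0.21), and the transcription factor GATA3 at -0.53 (SE 0.22). Their summed level was 145 to 253 CPM in males and 180 to 232 CPM in females, so the sums overlapped. The number lower at an unadjusted p under 0.05 was 1 without male 2 and 1 without female 1, with medians of -0.19 and -0.17, and 10 without male 1, with a median of -0.49. The background given is that of the fit with all libraries. The count over all genes also moved with the library left out, here and for the head kidney lists below. Of the macrophage and antigen presentation list, 12 members were higher and 16 lower, with TAP1, a peptide transporter, at -0.44 (SE 0.13), AIF1 at -0.50 (SE 0.19) and the mannose receptor gene MRC1 at 0.66 (SE 0.21). Macrophage markers thus stood on both sides. Markers of erythroid cells, which fill the head kidney, had 12 members higher and 5 lower with a median of 0.03, and those of neutrophils 5 higher and 6 lower with a median of -0.04.

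Interferon response genes, which cells switch on against viruses, had the largest share of members in 1 direction in the head kidney among the immune lists. Of 32 identifiers tested, 30 were lower and 2 higher in males, with a median log2 fold change of -0.45 against -0.00 for all genes. At an unadjusted p under 0.05, 15 were lower in males, against 2.01% of all genes, and 1 was higher, against 1.57%, a TRIM25 identifier (DLAgn_00176400, 0.29, SE 0.11). No member passed the adjusted threshold. DHX58, a cytosolic RNA sensor, had 24.1, 12.4, 15.4, 14.2 and 10.1 CPM in male head kidneys and 16.5, 45.6, 54.7, 85.6 and 14.5 CPM in female head kidneys. HERC6, a ligase of the ubiquitin-like ISG15 pathway in mice, had 130, 67.3, 70.5, 72.8 and 66.4 CPM in males and 116, 227, 134, 314 and 83.4 CPM in females. Females 2, 3 and 4, the shy ones, were the high libraries in both genes, the bold females 1 and 5 overlapped with the males, and male 1 was the highest male.

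The fold change on the log2 scale was -1.0 (SE 0.36) for DHX58, -0.85 (SE 0.27) for HERC6 and -1.14 (SE 0.42) for CMPK2, a mitochondrial nucleotide kinase of the antiviral response. Further members lower in males at an unadjusted p under 0.05 included the RNA sensor IFIH1 (-0.53, SE 0.18), the deubiquitinase USP18 that dampens interferon signalling (-0.67, SE 0.26), IFI44 (-0.71, SE 0.27), and the transcription factor IRF9 (-0.35, SE 0.15). The summed level of the list was 709 to 1047 CPM in male head kidneys and 893 to 2124 CPM in female head kidneys. Leaving out 1 library at a time gave medians between -0.55 and -0.35. The number lower at an unadjusted p under 0.05 was 3 without male 2 and 12 to 19 without any other library.

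As a mean over members of log2(CPM + 0.5), centred on the 10 libraries of the tissue, the list stood at 0.02, -0.46, -0.25, -0.19 and -0.35 in male head kidneys and 0.06, 0.42, 0.11, 0.76 and -0.13 in female head kidneys. In the pituitary it stood at 0.12, -0.25, -0.13, -0.56 and 2.08 in males, against -0.36, -0.28, -0.17, -0.10 and -0.35 in females. Pituitary male 5 was far above all others. There, 29 of 30 members were higher in males with a median of 0.73, but 20 of 30 with a median of 0.08 without male 5. DHX58 had 311 CPM in that library, against 12.1 to 32.6 CPM in the other males and 13.2 to 25.9 CPM in the females. In the brain, 16 members were higher and 13 lower, with a median of 0.02, and 6 higher and 23 lower, with a median of -0.23, without the 2 libraries that stood apart. The counts thus lay on opposite sides in pituitary and head kidney, and no member passed the test of a difference between tissues.

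**Figure D4:**
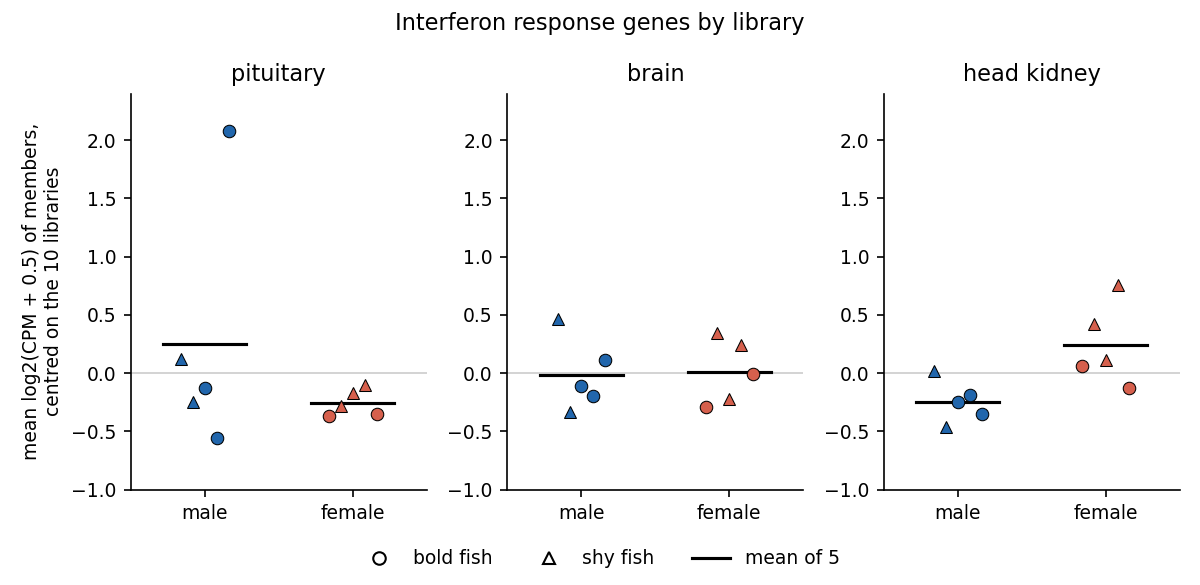
Interferon response genes in each library, as the mean over list members of log2(CPM + 0.5), centred on the 10 libraries of a tissue. Circles are bold fish, triangles shy fish and lines the mean of 5. Pituitary male 5 stands at 2.08, and in the head kidney the 3 shy females and bold female 1 (0.06) lie above all males, the highest of which is at 0.02.

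Members of other head kidney lists were also mostly lower in males. Proteasome subunits were lower in males for 34 of 37 members, with a median of -0.20 and 2 members at an unadjusted p under 0.05, against a background of 2.01%. The count lower at that level was 10 without female 1 and 10 without female 2, with medians of -0.24 and -0.23, and the median was -0.12 without female 3. With all libraries the 2 were PSMB10, an immunoproteasome subunit, which averaged 37.0 ± 4.9 CPM in males and 56.1 ± 13 CPM in females (SD, n = 5 each), at -0.58 (SE 0.16), and PSMA6B, whose sexes did not overlap, at -0.25 (SE 0.09). Immediate early genes, which respond within minutes to stimulation and handling, were lower in males for 27 of 32 members, with a median of -0.36 and 3 members at an unadjusted p under 0.05 (background 2.01%). Of these 3, JUN averaged 1.96 ± 0.43 CPM in males and 4.80 ± 4.0 CPM in females (SD, n = 5 each; log2 fold change -1.39, SE 0.48), IER2 stood at -0.70 (SE 0.27) and NR4A1 at -1.17 (SE 0.47). The list had 22 members lower with a median of -0.20 and none lower at that level without female 1, 12 with a median of -0.49 without female 5, and 1 without male 2. In the pituitary 24 of 36 members were lower in males, 7 at that level (background 7.69%), with a median of -0.35. Without pituitary males 1 and 2, 26 were lower and 11 higher, with a median of -0.23. In the brain 22 were lower and 16 higher, with a median of -0.09. There, 29 were lower and 9 higher without the 2 libraries that stood apart, but 15 lower and 23 higher without female 1.

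Genes of the glucocorticoid response were lower for 20 of 26 members in the head kidney with a median of -0.09, and none had an unadjusted p under 0.05. As a mean of centred log2(CPM + 0.5), the list stood at -0.33, -0.63, 0.05, 0.48 and 0.54 in male head kidneys and 0.56, -0.26, -0.14, -0.20 and -0.07 in female head kidneys. In the pituitary it stood at -0.43, -0.52, -0.03, 0.45 and 0.55 in males and 0.55, -0.29, -0.12, -0.19 and 0.00 in females. Libraries with the same number in the order of listing thus had close values in these tissues, and the labels do not say whether they come from the same fish.

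In the pituitary, the lists with the most members at an unadjusted p under 0.05 moved with the 2 libraries that stood apart. Ribosomal protein genes had 5 members higher and 51 lower in males, 27 of them at an unadjusted p under 0.05 (background 7.69%), with a median of -0.61, and 13 higher and 43 lower, none at that level, with a median of -0.03 without males 1 and 2. Genes of the respiratory chain and ATP synthase had 7 higher and 63 lower, 30 at that level, with a median of -0.62, and 40 higher and 30 lower, none at that level, with a median of 0.02 without them. In the brain the same lists were higher in males for 55 of 55 and 69 of 70 members, none at that level, with medians of 0.56 and 0.52. Without brain male 1 and brain female 3 the medians were 0.13 and 0.15. Ribosomal protein genes then had 50 members higher, 12 of them at that level, and 5 lower. Respiratory chain genes had 65 higher, 14 of them at that level, and 6 lower, 1 at that level. Over all genes, the brain count at that level was also larger without these libraries than with all of them. The medians and the counts at that level thus depended on which libraries were included, while most members stayed higher in male brains.

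Pituitary transcription factors also had members at an unadjusted p under 0.05. LHX3, a factor of all anterior pituitary cells, averaged 101 ± 39 CPM in males and 159 ± 20 CPM in females (SD, n = 5 each), with a log2 fold change of -0.84 (SE 0.24). LHX4 stood at -1.10 (SE 0.39) and GATA2, a factor of gonadotropes and thyrotropes in mice, at -0.61 (SE 0.23). For all 3, the sexes overlapped. Without males 1 and 2, LHX3 stood at -0.18 (SE 0.14), LHX4 at -0.10 (SE 0.21) and GATA2 at -0.65 (SE 0.33). Of the whole pituitary hormone and receptor list, 5 members were higher and 14 lower with a median of -0.25, against 11 higher and 9 lower with a median of 0.05 and none at an unadjusted p under 0.05 without males 1 and 2. EGR1, the factor through which gonadotropin-releasing hormone acts on the LH beta gene in mammals, stood at -1.33 (SE 0.46), at 48.2 ± 36 CPM in males and 79.7 ± 12 CPM in females (SD, n = 5 each), and at -0.25 (SE 0.24) without males 1 and 2. The gonadotrope list as a whole had 7 members higher and 6 lower, and 5 higher and 8 lower without them. The growth hormone and IGF axis list had 12 higher and 14 lower with a median of -0.03, and its members at an unadjusted p under 0.05, all higher in males (background 5.85%), were JAK2 (0.81, SE 0.31), GHR1 (0.56, SE 0.23) and IGFBP4 (0.61, SE 0.25). Without males 1 and 2, that list had 11 higher and 16 lower with a median of -0.06, and JAK2 stood at 0.52 (SE 0.44), GHR1 at 0.11 (SE 0.28) and IGFBP4 at -0.05 (SE 0.23).

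Across tissues, a shared sex difference was looked for in the 13789 genes tested in all 3. Of these, 2613 had the same sign in every tissue (18.9%), 1221 higher and 1392 lower in males, and 0 passed when the largest of the 3 p values was adjusted (0%). The smallest adjusted value was 1 by edgeR with Benjamini-Hochberg adjustment. Of the genes with the same sign in all 3 tissues, 17 had an unadjusted p under 0.05 by edgeR in at least 2 tissues. In all 3 tissues, 1 gene did (0.00725% of the 13789). A fit of the mean over tissues also passed 0 genes. No gene had sexes that did not overlap in all 3 tissues, and 1 gene did in 2 of them.

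The gene at an unadjusted p under 0.05 in all 3 tissues was TRIB1, a tribbles pseudokinase that brings transcription factors such as C/EBP proteins to a ubiquitin ligase. TRIB1 had 18.3, 17.1, 25.1, 26.0 and 31.7 CPM in male pituitaries, against 25.8, 37.3, 37.1, 36.0 and 48.8 CPM in female pituitaries. In the brain it had 27.1, 21.3, 22.8, 27.1 and 33.5 CPM in males and 35.6, 37.1, 40.6, 29.4 and 42.7 CPM in females. In the head kidney it had 2.98, 5.84, 15.0, 12.0 and 18.6 CPM in males and 17.2, 8.92, 17.5, 15.3 and 14.7 CPM in females. The sexes overlapped in each tissue, by 2 males in the pituitary and 1 in the brain, and most in the head kidney, where male 5 was the highest library and shy males 1 and 2 the lowest.

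The log2 fold change of TRIB1 was -0.73 (SE 0.20) in the pituitary, -0.53 (SE 0.18) in the brain and -0.74 (SE 0.33) in the head kidney, with unadjusted p values of 0.0032, 0.017 and 0.048 by edgeR. Without the libraries that stood apart it was -0.41 (SE 0.24, unadjusted p 0.115 by edgeR) in the pituitary and -0.54 (SE 0.14) in the brain. The largest of the 3 unadjusted p values was 0.0485, and it was 0.0122 by DESeq2, 0.185 by limma voom and 0.334 without the behavior term. Leaving out 1 library moved it to between 0.0196 and 0.157, the highest without head kidney male 2. The place of TRIB1 on the list of 1 therefore rested on single libraries and on the model. Without the 4 libraries that stood apart, 3773 genes shared a sign (27.0%), and 1 gene had an unadjusted p under 0.05 in all 3 tissues. This was IL6ST, the signalling receptor subunit of interleukin 6 family cytokines, at 1.88, 1.04 and 0.85 in pituitary, brain and head kidney. Its unadjusted p values were 0.0448, 0.0480 and 0.0148 by edgeR, and its largest p did not pass after adjustment.

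**Figure D5:**
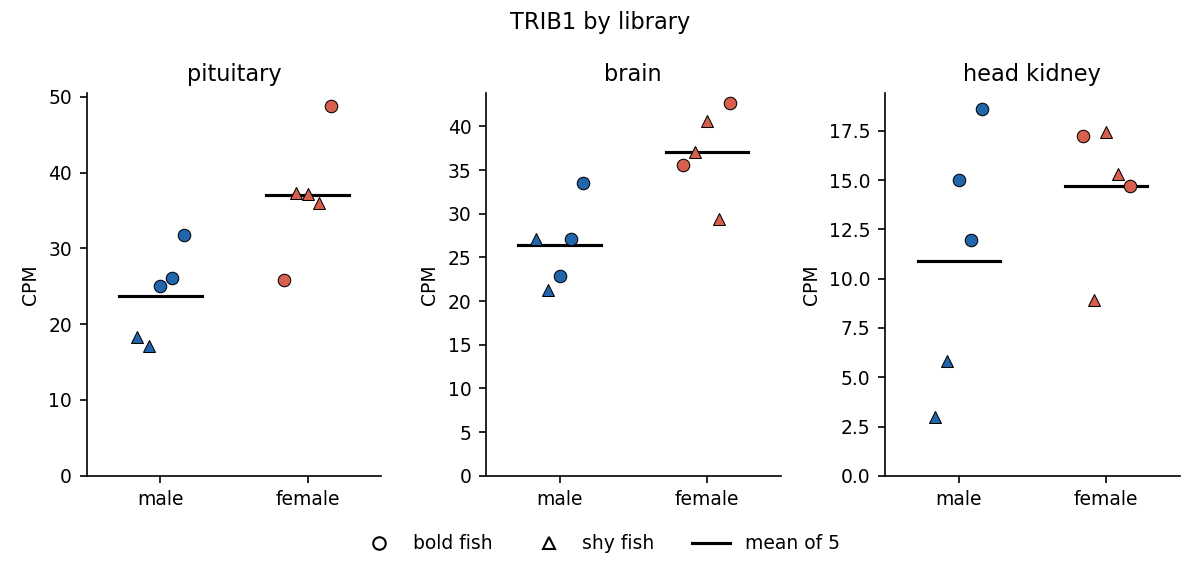
TRIB1 level in CPM in each library of the pituitary, brain and head kidney, with circles for bold fish, triangles for shy fish and lines for the mean of 5. Each panel has its own axis from 0. The male mean lies below the female mean in all 3 tissues and the sexes overlap in each.

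Next in order among genes lower in males in all 3 tissues were DLAgn_00053030 (-1.33, -0.81 and -2.54 in pituitary, brain and head kidney), THADA (-0.31, -0.30 and -0.38), DLAgn_00223540 (-1.06, -1.10 and -0.57) and SVILA, a supervillin that binds actin (-0.69, -0.28 and -0.35). Among genes higher in males in all 3 stood DLAgn_00241070 (2.31, 1.43 and 1.52), CHCHD5 (0.31, 0.44 and 0.56), PDCL3, a phosducin-like helper of protein folding (0.29, 0.49 and 0.29), AN32B (0.64, 0.31 and 0.42) and the proteoglycan gene SPOCK2 (0.35, 0.25 and 0.99). Without the libraries that stood apart, several of these were nearer 0. In the pituitary THADA then stood at -0.18, SVILA at -0.14, PDCL3 at 0.028, AN32B at 0.39 and DLAgn_00053030 at -0.70, DLAgn_00223540 stood at -0.62 in the pituitary and -0.27 in the brain, and in the brain PDCL3 stood at 0.30 and SPOCK2 at 0.13. DLAgn_00241070, which carries no symbol, had 19.9, 19.0, 33.6, 14.5 and 34.0 CPM in male head kidneys and 6.77, 21.0, 1.86, 12.6 and 4.41 CPM in female head kidneys. The sexes overlapped in all 3 tissues for this gene. SMIM4, which codes for a small mitochondrial membrane protein, was the gene without overlap in 2 tissues. It had 18.7, 21.7, 17.3, 17.7 and 16.9 CPM in male brains and 16.0, 16.3, 0.652, 14.5 and 16.0 CPM in female brains, and 14.0, 7.86, 8.30, 7.83 and 7.79 CPM in male head kidneys and 7.26, 5.63, 7.09, 6.54 and 7.01 CPM in female head kidneys. The male and female values lay side by side apart from brain female 3 and head kidney male 1, and the log2 fold changes were 0.46 (SE 0.25) in the pituitary, 0.52 (SE 0.60) in the brain and 0.44 (SE 0.18) in the head kidney. Without the libraries that stood apart they were 0.18 (SE 0.30) in the pituitary and 0.24 (SE 0.11) in the brain.

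For sex differences particular to 1 tissue, the log2 fold change in each tissue was tested against the mean of the other 2 in 1 edgeR fit of all 30 libraries, taken as independent although each fish gave 3 tissues. Of 20598 genes, 0 passed for the pituitary, brain or head kidney (0% each), with smallest adjusted p values of 0.668, 0.728 and 0.989 by edgeR with Benjamini-Hochberg adjustment. At an unadjusted p under 0.05 stood 1514 genes for the pituitary (7.35%), 1146 for the brain (5.56%) and 460 for the head kidney (2.23%). Of the same 20598 genes fitted, DESeq2 called 12, 5 and 7. Its log2 contrasts for the 12 pituitary genes ran from -22.2 to 26.7. Whether contrasts of such size come from groups without a count was not tested. No gene was thus shown to be sexed in 1 tissue only by edgeR.

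Among the smallest p values for the pituitary stood 2 identifiers without a symbol that were at high levels there and near 0 elsewhere. DLAgn_00161450 had 484, 991, 899, 559 and 635 CPM in male pituitaries and 2610, 5307, 620, 2185 and 2778 CPM in female pituitaries. Of 5 females, 4 lay above all males and female 3 among them, at 620 CPM (log2 fold change -1.91, SE 0.48). DLAgn_00234090 had 5297, 2614, 4126, 3813 and 4873 CPM in male pituitaries and 4252, 12372, 8440, 6518 and 7806 CPM in female pituitaries, and the sexes overlapped through female 1 (-0.85, SE 0.29, and -0.50, SE 0.31, without males 1 and 2). Outside the pituitary neither exceeded a mean of 0.383 CPM in either sex, so the contrast with other tissues rests on a few reads there. PCDH18, a protocadherin, had a log2 fold change of 1.33 (SE 0.40) in the pituitary, -0.11 (SE 0.19) in the brain and -1.10 (SE 0.47) in the head kidney, and the pituitary value differed from the mean of the others by 1.94 (SE 0.48). For TNIKA the head kidney value of 0.48 stood against -0.09 (SE 0.12) in the pituitary, where it was -0.03 without males 1 and 2, and -0.10 (SE 0.14) in the brain, a difference of 0.57 (SE 0.15) that did not pass.

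Over the whole transcriptome, with no behavior term, the split by sex held 14.4% of the variation between pituitary libraries, 7.87% between brain libraries and 9.53% between head kidney libraries. The pseudo-F values were 1.34, 0.684 and 0.843, with exact permutation p values of 0.397, 1 and 0.825 over all ways to label 5 of 10 libraries male, and Benjamini-Hochberg adjusted p values of 1. Leaving out 1 library at a time moved the pseudo-F to between 0.931 and 1.79 in the pituitary, 0.547 and 1.01 in the brain, and 0.733 and 0.987 in the head kidney.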

How the data were processed

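The deposited table holds raw read counts, not normalized, for 26719 gene identifiers, of which 5479 carry no symbol and 0 matched the reference gene table, so symbols are those of the deposited table. Per the labels' protocols, stranded poly(A) mRNA libraries were sequenced on 3 lanes, with single-end reads of 50 nt. Per the submitters' processing notes, the tools were featureCounts 1.6.2, SAMtools 1.5, TopHat2 2.1.1 with Bowtie2 2.2.9, FastQC and bcl2fastq 2.20. Which build, annotation and strand option went in is not given in the sources used here, so reads of overlapping, antisense or near-identical genes may be shared between identifiers.

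Male was set against female in each tissue by edgeR 4.0.16 in R 4.3.3 (quasi-likelihood, robust, TMM factors, filterByExpr with a minimum count of 10, behavior as covariate), with Benjamini-Hochberg adjustment and a threshold of 0.05. Fold changes are log2, male minus female. Levels are CPM of TMM-scaled libraries. A shared difference used the largest of the 3 p values of a gene with 1 sign. Differences between tissues came from 1 edgeR fit of the 30 libraries taken as independent. In that fit, 1948 of 20598 genes had no count in at least 1 of the 6 groups of sex and tissue. Values of such genes by edgeR are not printed, apart from those of DLAgn_00234090 and DLAgn_00161450, whose contrast is not printed. Pseudo-F used log2 CPM with a prior count of 2 and no behavior term. All tests were two-sided. Alternatives were DESeq2 1.42.0, limma 3.58.1 voom with quality weights, RLE factors, other filters, no behavior term, non-robust fits, and leaving out libraries. Fits were tested on simulated counts.

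Within tissues, 0 of 135 pairs of libraries were identical. Replicate numbers follow listing order and were not used to pair samples: the labels link no libraries of different tissues, although each fish gave 3. How far shared fish move the p values of differences between tissues was not tested. The libraries that stood apart, the members and the 35 gene lists were chosen with earlier results of these data known. Genes named were taken, for each tissue and for the shared test, from the 5 of smallest p per direction, and reproductive genes fixed by symbol. Genes called by DESeq2, list members without overlap, and the interferon members were added after their values were seen. Also added were genes with the smallest p of the difference between tissues and the gene without overlap in 2 tissues. Further list members were named for an unadjusted p under 0.05. Other reproductive genes were added under the symbols that the deposited table uses for them. Of the symbols fixed in advance, those of estrogen receptors, aromatase (CYP19A1, CYP19A1A, CYP19A1B) and gonadotropin subunits (FSHB, LHB, CGA) gave no tested gene.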

Additional observations from a re-analysis of the deposited data

Results flagged for a closer look

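In groups of 5 libraries, a library was singled out when its gap to the nearest other library exceeded Dixon's 95% limit as a share of the group's range. Of 230 groups looked at, 22 held such a library, 17 of them for named genes. The limit is built for about 1 in 20 groups of independent, normally distributed values. Groups here share libraries and most hold unlogged CPM, so their chance rate is not known. No named gene had males all above females in 1 tissue and all below them in another, and the other genes were not checked for this.

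Brain female 3 was singled out 10 times. It had the highest female brain value for DLAgn_00223430 (24.3 CPM, others 2.11 to 5.43), ABCC4 (22.8, others 3.67 to 7.78), DLAgn_00223540 (20.9, others 3.52 to 7.51), SOX9 (53.7, others 15.3 to 22.6), GHR (7.04, others 1.73 to 2.4) and INHBB DLAgn_00136170 (13.2, others 2.4 to 4.05). It had the lowest for SVILA (40.4 CPM, others 55.5 to 61.3) and FOXL2 (0.130, others 2.90 to 3.81). Its ribosomal protein share was 0.0160% of counts, against 1.64% to 1.90% in the other female brains, and its median Spearman correlation was 0.731, against 0.984 to 0.986. Brain male 1 was singled out for its ribosomal protein share of 2.81% (others 1.81% to 2.07%), its median Spearman correlation of 0.925 (others 0.980 to 0.986) and DLAgn_00223540 at 0.922 CPM (others 4.68 to 5.92). Brain male 3 had THADA at 24.2 CPM (others 17.5 to 19.4).

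In the head kidney, male 1 stood above the other males for HERC6 (130 CPM, others 66.4 to 72.8), DTX3L DLAgn_00092270 (74.0, others 50.9 to 55.8), CMPK2 (23.6, others 7.79 to 9.96) and the ribosomal protein share (5.68%, others 4.48% to 4.61%). The first 3 of these are interferon response genes. Among females, female 1 had DLAgn_00053030 at 89.6 CPM (others 4.85 to 22.3), female 2 had STAR at 271 CPM (others 118 to 161), female 3 had CHCHD5 at 6.44 CPM (others 1.72 to 2.83) and female 4 had AN32B at 5.14 CPM (others 2.71 to 2.91).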

How the results depend on the processing

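Counts at an adjusted p under 0.05 stayed at 0 under all alternatives other than these. DESeq2 gave 1 gene in the brain, 7 in the head kidney, where 1 list member (MPEG1) was among them, and 12, 5 and 7 genes unlike the other tissues in pituitary, brain and head kidney. Leaving out 1 library at a time gave 0 to 1 genes in the pituitary (DLAgn_00037950, 1.68, without female 1) and 0 to 1 in the head kidney (CK-2.1, -3.47, without female 5). At an unadjusted p under 0.05, pituitary counts were 950 without the behavior term, 955 by voom, 329 without the libraries that stood apart and 877 to 3959 leaving out 1 library. Brain counts were 854 by voom, 241 by DESeq2, 211 with no filter, 148 without the behavior term, 633 without the libraries that stood apart and 36 to 906 leaving out 1. Head kidney counts were 417 to 912 leaving out 1. The same-sign count was 3930 by voom. Of the fold changes of named genes under alternatives, 1818 kept sign and side of the threshold, 8 gained it by DESeq2 and 37 changed sign, all of reproductive genes that did not pass. Without the libraries that stood apart, the pituitary gave ARA 0.25, PGR -0.55, ARB -0.061, INHBB (DLAgn_00047380) 0.16 and PIWIL1 0.025, and the brain SHBG -0.083, AMH -0.013, INHBB (DLAgn_00047380) 0.020, SOX9 0.10 and INHBB (DLAgn_00136170) 0.37. By voom, brain SHBG was -0.066, AMH -0.059, the INHBB pair 0.0016 and 0.31, and SOX9 0.063. Without the behavior term, pituitary INHBB was 0.047 and brain FOXL2 0.024. Leaving out 1 library at a time gave ranges of -0.37 to 0.038 for INHBB (DLAgn_00047380) and -0.075 to 0.89 for PGR in the pituitary, and in the brain of -0.094 to 0.14 for SHBG, -0.67 to 0.24 and -0.61 to 0.26 for the INHBB pair, -0.13 to 0.34 for AMH, -0.34 to 0.53 for ARB, -0.24 to 0.16 for FOXL2, -0.40 to 0.063 for SOX9 and -0.67 to 0.010 for GHR. The cause of these shifts was not tested. No paired analysis was possible because the replicate numbers only follow the order of listing and the labels link no libraries of 1 fish. Counting depth limits genes near 1 CPM.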

Other observations

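In the pituitary, male 4 alone held galanin (GAL) at 134 CPM, against at most 0.261 CPM in the other males and 0.237 CPM in the females, and head kidney libraries held none. As a mean of centred log2(CPM + 0.5), male 4 was also the highest pituitary library for neuron genes (0.57, others -0.28 to 0.32). The same held for genes of brain aromatase cells and radial glia (0.75, others -0.52 to 0.28), but not of oligodendrocytes and myelin (-0.001). Whether this library holds brain tissue was not tested. Pituitary genes of blood vessel growth included the receptor KDRL, at 43.8 ± 14 CPM in males and 24.9 ± 9.5 CPM in females (SD, n = 5 each; log2 fold change 0.80, SE 0.27), on a list with 7 of 10 members higher in males. Without pituitary males 1 and 2, KDRL stood at 0.16 (SE 0.27), and that list had 2 members higher and 8 lower with a median of -0.16. Among chromatin modifiers linked to sex in reptiles and fish, 26 of 37 were higher in male pituitaries with a median log2 fold change of 0.10, including TET3 (0.28, SE 0.11), HDAC11 (0.47, SE 0.19) and KDM6B (0.36, SE 0.15). Without those 2 males, 19 were higher and 18 lower, none at an unadjusted p under 0.05, and TET3 stood at 0.22, HDAC11 at 0.17 and KDM6B at 0.21. In male brains 13 of 37 and in male head kidneys 22 of 36 of that list were higher, with medians of -0.06 and 0.02. In the brain, germ cell markers were higher in males for 8 of 9 members, at summed levels of 31.8 to 35.7 CPM in males and 15.3 to 34.1 CPM in females. Without the 2 brains that stood apart, 6 were higher and 3 lower with a median of 0.10. In the head kidney, B cell genes were higher in males for 7 of 22 members, and cell cycle genes for 16 of 52. None of these genes passed the adjusted threshold by edgeR.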
